A study of Mus musculus with 4 samples.

Results

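The genes of the DNA replication machinery were compared between mouse embryonic stem (ES) cells with and without Gcn5 (Kat2a), which encodes an enzyme that acetylates histones as part of SAGA and ATAC. The 50 genes encode the origin recognition complex (6 genes), the licensing factors (3), the MCM proteins (8), Cdc45 and GINS (5), DNA polymerase alpha with primase (4), polymerase delta (3), polymerase epsilon (4), the sliding clamp and its loader (6), the single-strand binding protein RPA (3), the enzymes that join Okazaki fragments (2), enzymes of nucleotide supply (5) and topoisomerase IIα (1). They were taken by symbol, from a list chosen with earlier results of these data known. All 50 were found among the 23259 genes with a value in each of 4 RNA-seq libraries. All 50 reached the mean of 1 FPKM that was set for testing, as did 11932 genes in all. FPKM by name are fragments scaled to transcript length and to the size of the library. The values deposited here were normalized to spike-ins, in a way that the sources used here do not state. Pole2, a subunit of polymerase epsilon, lies in a stretch of chromosome 12 that was raised in 1 library and is described apart, which leaves 49 genes for counts and medians.

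All 4 clones came from 2 male founder lines, 4 and 6, which the submitters derived from Gcn5 flox/flox blastocysts at embryonic day 3.5 and grew with 15% serum and 1000 U/mL of LIF on mitomycin-C treated mouse embryonic fibroblasts. Every clone passed through transient transfection with an EGFP-Cre vector and a sort at 72 hours. The WT clones, still flox/flox, were picked from the GFP-negative cells, and the KO clones, which had lost exons 3 to 18 of Gcn5 on both alleles, from the GFP-positive cells. WT replicate 1 and KO replicate 1 belong to line 4, WT replicate 2 and KO replicate 2 to line 6, so each group is 2 clones, 1 per line. A difference within a line therefore compares 1 clone with 1 clone and has no test. For KO against WT without the line in the fit, p-values rest on the spread between clones of separate lines. For line 6 against line 4 without genotype in the fit, they rest on the spread between the WT and the KO clone of a line, which are not replicates. With both in the fit, only the part of the difference that varies between the lines is left as spread. The sources used here do not state if feeders were depleted before lysis.

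Replication starts at origins that the origin recognition complex has bound and on which Cdc6 and Cdt1 have loaded the ring of Mcm2 to Mcm7. Cdc45 and GINS then turn the ring into the active helicase, polymerase alpha and primase lay down primers, and polymerases epsilon and delta extend the leading and the lagging strand, the latter on the clamp PCNA. ES cells have a short G1 phase and spend much of their cycle in S phase, and many replication genes are known targets of E2F transcription factors.

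The promoters of 42 of the 50 genes were present in the RefSeq promoter table used here (GRCm38.p6, 250 bases before to 50 bases after each start), in 51 windows. They were searched on both strands for the E2F forms TTTGGCGC, TTTCCCGC, TTTGGCGG, TTTCCCGG, TTTGCCGC and TTTCGCGC, where matches on opposite strands may overlap. At least 1 match lay in 21 of the 51 windows (41.2%), from 20 genes, against 3.98% of all 32851 windows. Mcm6 held 3 matches in a window, Mcm7, Mcm3, Mcm5, Lig1 and Rfc3 held 2, and Pole2 held 1. The stretch around these matches is given 5′ to 3′ on the strand of the gene, up to 20 bases either side where the window reaches that far, with the E2F matches in capitals. It is printed for Mcm6, for the 3 most abundant of the genes with 2 matches, all of the MCM ring, and for Pole2.
Mcm6 promoter, chr1:128359725-128359835, minus strand: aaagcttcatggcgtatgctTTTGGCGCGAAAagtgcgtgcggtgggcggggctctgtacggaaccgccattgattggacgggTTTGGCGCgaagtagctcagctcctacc
Mcm7 promoter, chr5:138171840-138172068, minus strand: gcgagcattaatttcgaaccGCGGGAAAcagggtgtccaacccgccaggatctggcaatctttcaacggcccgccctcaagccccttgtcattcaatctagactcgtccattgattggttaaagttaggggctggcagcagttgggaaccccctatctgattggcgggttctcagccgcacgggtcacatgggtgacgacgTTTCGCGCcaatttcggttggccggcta
Mcm3 promoter, chr1:20820263-20820313, minus strand: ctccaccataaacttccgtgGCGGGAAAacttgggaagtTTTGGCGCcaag
Mcm5 promoter, chr8:75109336-75109387, plus strand: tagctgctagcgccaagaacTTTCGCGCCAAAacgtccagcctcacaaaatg
Pole2 promoter, chr12:69228153-69228200, minus strand: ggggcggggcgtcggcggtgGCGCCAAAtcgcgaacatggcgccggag

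In Mcm6 and Mcm5 a pair of matches on opposite strands overlapped into a longer run of capitals. The matches of Mcm3 and Pole2 lay at positions 19 and 10 after the annotated start, counted to the beginning of the leftmost match. Of other promoter elements, the CCAAT box CCAAT was in 52.9% of the members' windows (37.4% of all), the E-box CACGTG in 15.7% (7.15% of all) and TTTGAA, the core of the cell cycle homology region, in 11.8% (17.9% of all). A match describes the letters and shows neither binding nor its absence. No promoter was read for Gmnn, Gins4, Gins2, Pole, Gins1, Prim2, Rfc2 and Mcm4.

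Kat2a itself stood at 38.7 and 34.4 FPKM in the WT clones and at 11.5 FPKM in both KO clones (log2 fold change -1.58, SE 0.23, limma adjusted p = 0.0112). The groups did not overlap. The call was lost when either KO library was left out, with no filter on low values, and after centring or quantile normalization. Reads from the exons that remain in KO cannot be told apart from whole transcripts. The summed FPKM was 757931 and 680168 in WT and 520491 and 538257 in KO. The median gene lay at -0.44 (KO minus WT, log2) in line 4 and -0.19 in line 6, and differences are therefore also given as distances from each line's median gene. Sequencing depth is unknown, as the files hold normalized values. The ES cell markers were high in every library, with summed levels of 5329 and 4225 FPKM in WT and 3356 and 3495 FPKM in KO over 10 of 10 genes. Feeder fibroblast markers were also present, with sums of 197 and 109 FPKM in WT and 149 and 146 FPKM in KO. Of these 13 of 16 passed the filter, as did 3 of 5 trophectoderm markers, with Tfap2c at 35.5 and 16.3 FPKM in WT and 27.6 and 13.2 FPKM in KO, and 1 of 5 endoderm markers, Gata4.

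The replication genes were abundant transcripts. Their mean level over the 4 libraries ran from 4.76 FPKM for Gins3 to 336 FPKM for Pcna with a median of 56.6 FPKM, against 9.68 FPKM for all tested genes, and the median member lay at the 87.7th percentile. FPKM is scaled per transcript length, so levels can be set side by side between genes. The order of the 49 levels was nearly the same in every library, with Spearman's rho of 0.991 between WT and KO of line 4, 0.994 in line 6, 0.970 for the pair of WT clones and 0.957 for the KO pair. These correlations run across genes, which are not independent replicates, and share each gene's length and sequence.

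**Figure D1:**
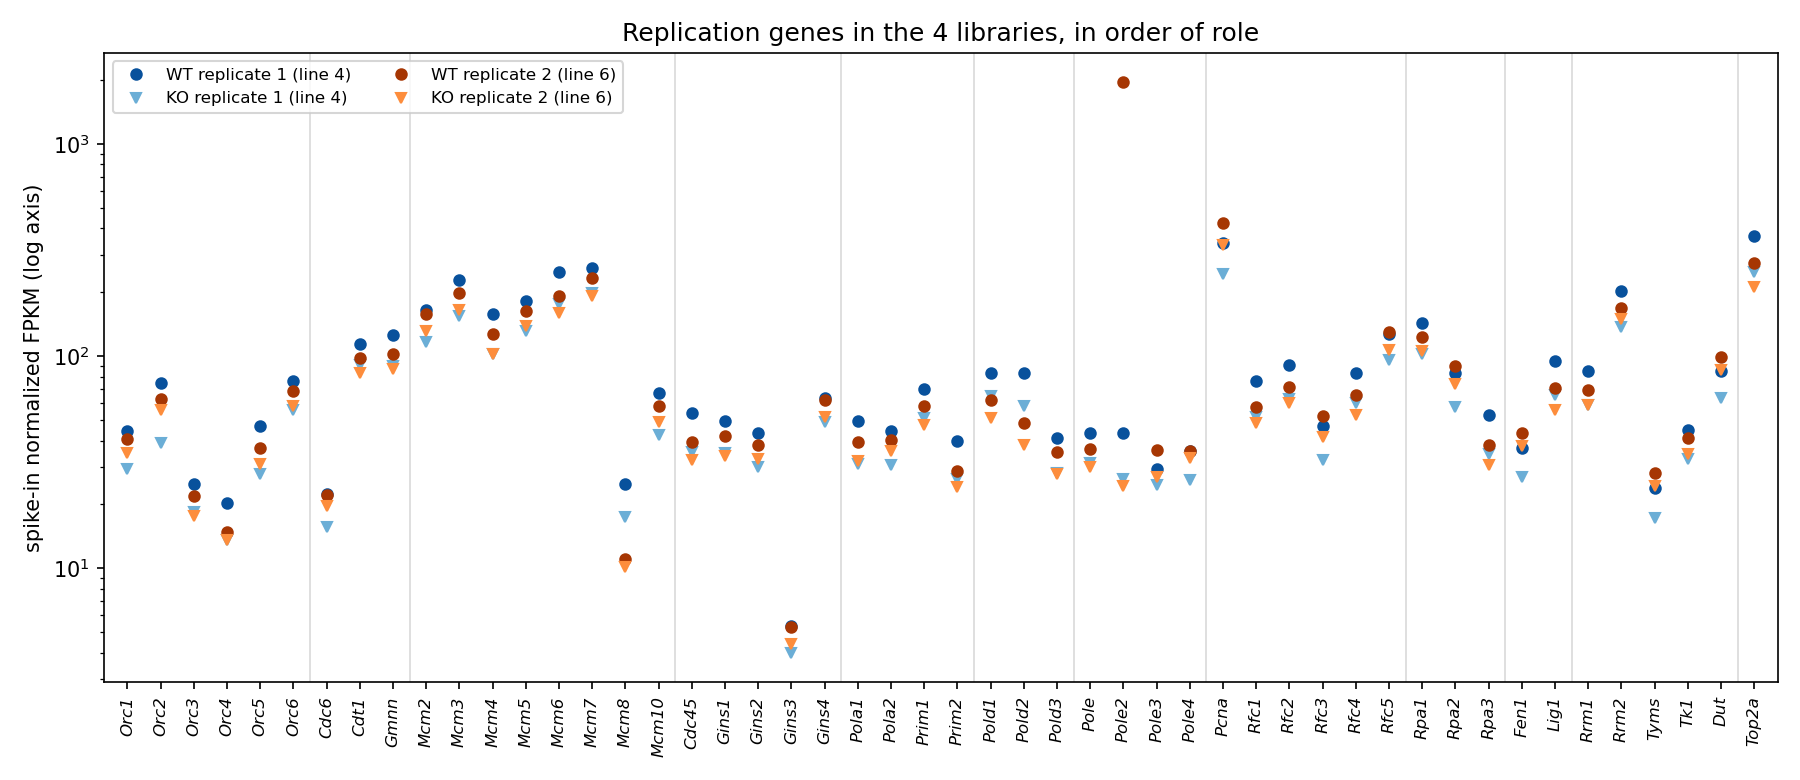
Spike-in normalized FPKM (log axis) of all 50 replication genes in the 4 libraries, ordered by role, 1 point per library. Gins3 lies lowest and Pcna highest apart from Pole2, whose WT replicate 2 point stands at 1967 FPKM, and the KO triangles lie below the WT circle of the same line in every column.

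In most complexes the subunits were not at equal levels, and the lowest and highest were the same in all 4 libraries. Polymerases delta and epsilon were the exceptions. Among Mcm2 to Mcm7, Mcm4 was the lowest and Mcm7 the highest in all 4 libraries, and their levels differed by a ratio of 1.65 to 1.95. In GINS, which holds its subunits in equal numbers, Gins3 was lowest and Gins4 highest, 11.7 to 12.3-fold apart. In the origin recognition complex Orc4 was lowest and Orc6 highest (3.77 to 4.59-fold), in the clamp loader Rfc3 and Rfc5 (2.49 to 2.97-fold), in RPA Rpa3 and Rpa1 (2.74 to 3.46-fold), and in polymerase alpha with primase Prim2 and Prim1 (1.75 to 2.04-fold). Ribonucleotide reductase had Rrm2, the small subunit, 2.34 to 2.53-fold above Rrm1. In polymerase delta the order was not fixed: Pold3 was always lowest, but Pold2 led in WT replicate 1 and Pold1 in the other libraries. In polymerase epsilon without Pole2 the lowest and highest changed between libraries, 1.03 to 1.47-fold apart.

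All 49 replication genes were lower in KO than in WT in both lines, by little more than the median gene. The median ratio of KO to WT FPKM was 0.70 in line 4 (range 0.522 to 0.838) and 0.83 in line 6 (0.740 to 0.923), against 0.70 and 0.86 for all tested genes. Of all tested genes, 86.3% were lower in both lines. This direction rests on the deposited scale: once each library was centred on its median, the log2 fold change of Cdt1, Mcm8, Gins3 and Pole4 was above 0, by at most 0.034. In bulk RNA, fewer cells of a type and less RNA per cell cannot be told apart. Every library is listed with 1 µg of RNA and 2 µL of spike-ins at a 100-fold dilution. Spike-ins added to an equal mass of RNA do not measure the amount of RNA per cell, and whether this scale follows that amount was not tested. No member passed the test over all genes (0 of 49, limma adjusted p of 0.445 to 0.487), where 2 genes were called (0.0168%). With the founder line as a block, 95 genes were called (0.796%) and again 0 members (adjusted p of 0.183 to 0.302). The blocked fit gave all genes of a level the same spread (an infinite prior df). On centred values it called 33 genes and 0 members. Without single libraries the count over all genes was 0 without KO replicate 1 or KO replicate 2, 20 without WT replicate 1 and 133 without WT replicate 2, and none of these fits called a member.

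The groups did not overlap for 43 of the 49 members, with both WT values above both KO values, which also held for 59.8% of all tested genes. In the remaining 6, Mcm8, Pold1, Pold2, Fen1, Tyms and Dut, the gap between the lines was wide enough for a WT value of 1 line to lie below a KO value of the other. An unadjusted limma p under 0.05 was reached by Orc2, Orc5, Mcm4, Pola1 and Top2a, 5 of 49, against 5.46% of all tested genes lower at that level. Each of these shares was above that among all tested genes, a difference that was not tested.

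Set against the median gene, the members' median was -0.050 in line 4 and -0.064 in line 6, with a mean over the lines of -0.059. Of the 49, 38 lay below the median gene in line 4 and 42 in line 6. Below it in both lines were 32 members, against 27.1% of all tested genes, and above it in both lines was 1, Pole4, against 27.1%. Under the alternatives named next that 1 became 3 with the other pseudocount, 4 with the other pseudocount and filter together, 8 with quantile normalization and 0 without a filter. The distances were small: 47 of 49 members stayed within 0.25 of the median gene in both lines, as did 76.1% of all tested genes. The count of 32 moved with the processing: it was 21 when 0.1 FPKM and not 1 was added before taking logs, 20 of 48 when genes also had to average 5 FPKM, 17 with quantile normalization and 49 without a filter on low values. Adding 1 FPKM understates changes of low genes, and most members were more abundant than most tested genes. With 0.1 FPKM the members' medians were -0.016 in line 4 and -0.055 in line 6, with 27 and 40 members below the median gene. Such counts by role, and for the pathway and mitosis genes, use 1 FPKM only. The ES markers lay at -0.22 and -0.08 in lines 4 and 6 and the feeder markers at 0.07 and 0.58, and their part in the members' position was not tested.

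**Figure D2:**
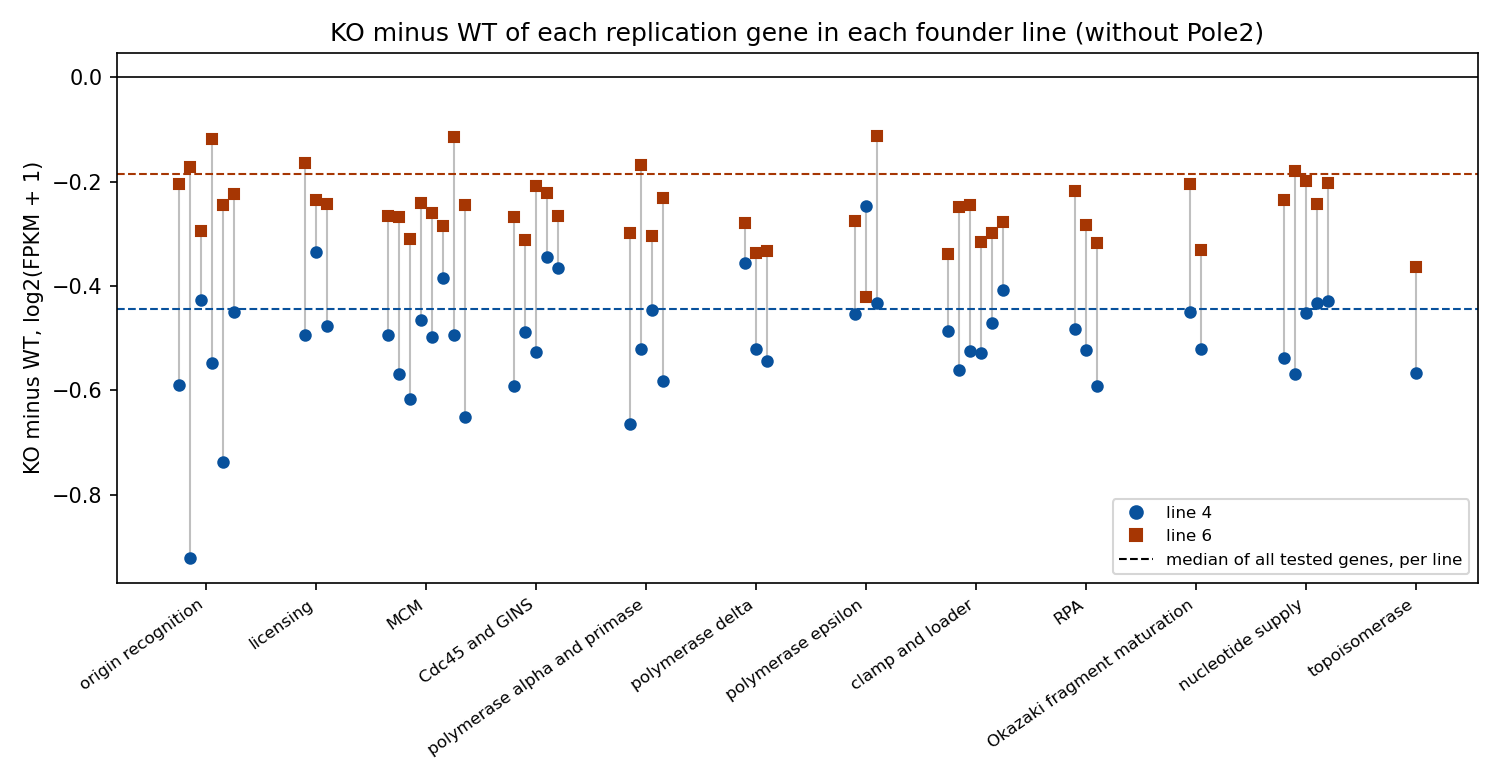
KO minus WT on the log2(FPKM + 1) scale for the 49 replication genes grouped by role, with circles for line 4, squares for line 6 and a grey line joining both values of a gene. Dashed lines mark the median of all tested genes, -0.44 in line 4 and -0.19 in line 6. All points lie below 0, Orc2 in line 4 reaches the lowest value, and only Pole3 has its line 6 square below its line 4 circle.

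The lines differed in the size of the difference. It was larger in line 4 than in line 6 for 48 of the 49 members, as for 89% of all tested genes. By at least 1.5-fold on the log2(FPKM + 1) scale, 8 members were lower in KO of line 4 (16.1% of all tested genes), namely Orc1, Orc2, Orc5, Mcm4, Mcm10, Cdc45, Pola1 and Rpa3, and 0 in KO of line 6 (1.5%). By the plain ratio of FPKM, Prim2 was past 1.5-fold in line 4 too, at 0.660. On the scale of the median gene the lines placed 16 members on opposite sides of it. With 1 clone per genotype and line, this difference between lines was not tested.

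Among the origin recognition genes, which mark where replication can start, all 6 were lower in KO without overlap (59.8% of all tested genes). Orc2 had 74.9 and 62.7 FPKM in WT (replicates 1 and 2, the order used throughout) and 39.0 and 55.6 FPKM in KO (log2 fold change -0.55, SE 0.23, limma adjusted p = 0.445). KO replicate 1 alone stood far below the rest, at a ratio to its WT clone of 0.522, the lowest of all members in line 4. In line 6 the ratio was 0.886, and relative to the median gene Orc2 lay at -0.48 in line 4 and 0.014 in line 6. Orc5, an ATPase-family subunit, showed 47.0 and 37.0 FPKM in WT and 27.8 and 31.1 FPKM in KO, lower in both lines (-0.29 and -0.060 relative to the median gene). Orc4 was the least abundant, at 20.3 and 14.9 FPKM in WT and 13.6 FPKM in both KO clones, and Orc6, the most abundant, had 76.5 and 68.2 FPKM in WT and 55.7 and 58.2 FPKM in KO. For Orc4 the WT clones were further apart than WT replicate 2 was from KO. The 6 genes had medians of -0.12 (line 4) and -0.030 (line 6) on that scale.

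The licensing factors lay close to the median gene. Cdc6, an ATPase that helps to load the helicase, had 22.3 and 22.1 FPKM in WT and 15.6 and 19.6 FPKM in KO. Cdt1, which brings the MCM ring to origins, had 114 and 98.3 FPKM in WT and 90.4 and 83.4 FPKM in KO, and Gmnn, which encodes the Cdt1 inhibitor geminin, had 125 and 103 FPKM in WT and 89.6 and 86.7 FPKM in KO. KO was lower without overlap in all of them, as in 59.8% of all tested genes. Relative to the median gene Cdt1 was above it in line 4 (0.11) and below it in line 6 (-0.050), while Gmnn was below it in both (-0.032 and -0.059). After each library was centred on its median, Cdt1 turned to 0.021 (log2 fold change, limma adjusted p = 1).

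Of the 8 MCM genes, 7 were lower in KO without overlap (59.8% of all tested genes). Below the median gene in both lines lay 6 of them (27.1%). Mcm4 had 157 and 127 FPKM in WT and 102 and 103 FPKM in KO (log2 fold change -0.46, SE 0.21, limma adjusted p = 0.445). Both KO clones stood below both WT clones and near each other, with Mcm4 at -0.17 and -0.12 relative to the median gene. Mcm7, the most abundant subunit, had 260 and 233 FPKM in WT and 199 and 191 FPKM in KO, with 0.060 in line 4 and -0.10 in line 6 relative to the median gene. The 4 ring genes whose promoters are printed above had KO to WT ratios of 0.707 (Mcm6), 0.765 (Mcm7), 0.673 (Mcm3) and 0.723 (Mcm5) in line 4 and of 0.834, 0.820, 0.830 and 0.845 in line 6. Outside the ring, Mcm10, which helps to start the helicase, was at -0.21 and -0.059 relative to the median gene, and Mcm8, a helicase of recombination repair, followed the line rather than the genotype, as described below.

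Cdc45 and the GINS genes, which complete the helicase, were all lower in KO without overlap (59.8% of all tested genes). Cdc45 had 54.0 and 39.3 FPKM in WT and 35.5 and 32.5 FPKM in KO, below the median gene in both lines (-0.15 and -0.083). Gins4 had 63.2 and 62.0 FPKM in WT and 48.8 and 51.4 FPKM in KO, and Gins3 had 5.33 and 5.31 FPKM in WT and 3.99 and 4.40 FPKM in KO. In both, the WT clones were nearly equal and the KO clones lay below them. Relative to the median gene Gins4 and Gins3 were above it in line 4 (0.079 and 0.10) and below it in line 6 (-0.080 and -0.038).

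Polymerase alpha with primase, which makes the primers, had 4 of 4 genes lower in KO without overlap (59.8% of all tested genes). Pola1, the catalytic subunit, had 49.6 and 39.5 FPKM in WT and 30.9 and 32.0 FPKM in KO (log2 fold change -0.48, SE 0.22, limma adjusted p = 0.445), and lay at -0.22 and -0.11 relative to the median gene. Prim1, the catalytic primase subunit, had 69.9 and 58.5 FPKM in WT and 51.1 and 47.1 FPKM in KO. Prim2, its partner, had 39.9 and 28.7 FPKM in WT and 26.3 and 24.3 FPKM in KO. WT replicate 1 was the highest library for all 3, and the KO clones were close to each other.

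Of the polymerase delta genes, Pold1 and Pold2 overlapped between WT and KO and Pold3 did not. Pold3, an accessory subunit, had 41.3 and 35.3 FPKM in WT and 28.1 and 27.8 FPKM in KO, without overlap and at -0.098 and -0.15 relative to the median gene. Pold1, the catalytic subunit, had 83.0 and 62.3 FPKM in WT and 64.6 and 51.2 FPKM in KO, so that KO of line 4 stood above WT of line 6. The members of polymerase epsilon other than Pole2 were lower in KO without overlap (59.8% of all tested genes). Pole, the catalytic subunit, had 43.4 and 36.7 FPKM in WT and 31.4 and 30.1 FPKM in KO. Pole3, a histone-fold subunit, had 29.5 and 36.2 FPKM in WT and 24.7 and 26.8 FPKM in KO and was the 1 member with the larger difference in line 6 (0.20 in line 4 and -0.24 in line 6, relative to the median gene). Pole4, its histone-fold partner, had 35.6 and 35.7 FPKM in WT and 26.2 and 32.9 FPKM in KO, the mildest difference in line 6 with a ratio of 0.923.

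At the fork, Pcna, the sliding clamp and the most abundant member, had 341 and 424 FPKM in WT and 243 and 335 FPKM in KO (log2 fold change -0.41, SE 0.21, limma adjusted p = 0.445). The highest KO clone, from line 6, was just under the lowest WT clone, from line 4. All 6 clamp and loader genes were lower in KO without overlap (59.8% of all tested genes). Below the median gene in both lines lay 5 of them (27.1%). Rfc3, a loader subunit, had 47.1 and 52.2 FPKM in WT and 32.3 and 41.8 FPKM in KO. The RPA genes, whose products coat unwound DNA, lay below the median gene in both lines in 3 of 3 cases (27.1% of all tested genes). Rpa1 had 144 and 123 FPKM in WT and 103 and 106 FPKM in KO, and Rpa3 had 52.5 and 38.3 FPKM in WT and 34.5 and 30.5 FPKM in KO, at -0.15 and -0.13 relative to the median gene. In Rpa3 the WT clones differed by more than WT replicate 2 did from KO replicate 1.

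The ligase gene Lig1 had 94.8 and 70.5 FPKM in WT and 65.8 and 55.8 FPKM in KO, and the flap endonuclease gene Fen1 had 37.1 and 43.4 FPKM in WT and 26.9 and 37.5 FPKM in KO. Lig1 was highest in line 4 and Fen1 in line 6, and the Fen1 groups overlapped. Nucleotide supply genes were nearest to the median gene, with a median of -0.0069 in line 4 and -0.019 in line 6 over 5 genes. Rrm2, the reductase subunit whose level follows S phase, had 203 and 169 FPKM in WT and 137 and 149 FPKM in KO, without overlap. Tyms, thymidylate synthase, had 23.9 and 28.1 FPKM in WT and 17.2 and 24.4 FPKM in KO, with KO of line 6 above WT of line 4. Top2a, the topoisomerase that untangles replicated chromosomes, had 368 and 273 FPKM in WT and 248 and 212 FPKM in KO (log2 fold change -0.47, SE 0.21, limma adjusted p = 0.445) and was below the median gene in both lines (-0.12 and -0.18).

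Between the founder lines the members differed in both directions. On centred values a call favours genes whose line difference is alike in WT and KO, as the spread comes from where these disagree. As deposited, 236 genes were called between the lines (1.98% of those tested) and 0 of 49 members (limma adjusted p of 0.199 to 0.999). With each library centred on its median, which takes away the shift between WT and KO, limma called 4 members lower in line 6, Mcm8, Pold1, Pold2 and Lig1 (13.8% of all tested genes), and 6 higher, Pcna, Rfc3, Rpa2, Fen1, Tyms and Dut (16.4%). With genotype as a term on the deposited scale 2 members were lower, Mcm8 and Pold2 (5.46%), and 0 higher (3.67%). Quantile normalization called 12 lower (16.3%) and 6 higher (16.1%), and genotype as a term on centred values 6 lower (13.5%) and 6 higher (16%). The fits on the deposited scale, with and without genotype as a term, had an infinite prior df, which gives all genes of a level the same spread. Leaving out a library leaves 1 line with 1 clone, where line and genotype are mixed, so no calls of members are counted there.

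Mcm8 was listed at 24.9 and 17.4 FPKM in WT and KO of line 4 and at 11.02 and 10.1 FPKM in WT and KO of line 6. Both libraries of line 4 stood above both of line 6, and within each line KO was the lower (line 6 against line 4, log2 -0.88 on centred values, limma adjusted p = 0.00192, and -0.92 with genotype as a term, adjusted p = 0.00082). Pold2, the polymerase delta subunit that links the catalytic subunit to the others, had 83.6 and 57.9 FPKM in WT and KO of line 4 and 48.6 and 38.3 FPKM in line 6, again without overlap between lines (-0.64 on centred values, limma adjusted p = 0.00567). Pold1 was lower in line 6 by a smaller amount (-0.33 on centred values, limma adjusted p = 0.0304), and Lig1 lay at -0.29 (adjusted p = 0.0498).

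The members that were higher in line 6 on centred values had smaller differences than Mcm8 and Pold2. Pcna was at 0.43 (limma adjusted p = 0.0230), Tyms at 0.39 (0.0103), Fen1 at 0.38 (0.0106) and Rfc3 at 0.29 (0.0413). Dut, which removes dUTP, was listed at 85.4 and 63.2 FPKM in WT and KO of line 4 and 99.1 and 85.9 FPKM in line 6. As deposited, the lines did not overlap for 3 members lower in line 6 (Mcm8, Pold1 and Pold2; 17.4% of all tested genes) and 3 higher (Fen1, Tyms and Dut; 16.3%). These are the 6 genes in which WT and KO overlapped, which follows from the ordering alone where KO is lower in both lines. Relative to the median gene 28 members were below it in line 6 in both genotypes (40.1% of all tested genes) and 12 above it in both (40.1%), with a median over the 49 of -0.078 in WT and -0.070 in KO. The share of members below the median gene in both genotypes, and that called lower with quantile normalization, were above the share among all tested genes; the other counts as deposited, on centred values or with genotype as a term on the deposited scale were below it. These shares were not compared by a test.

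**Figure D3:**
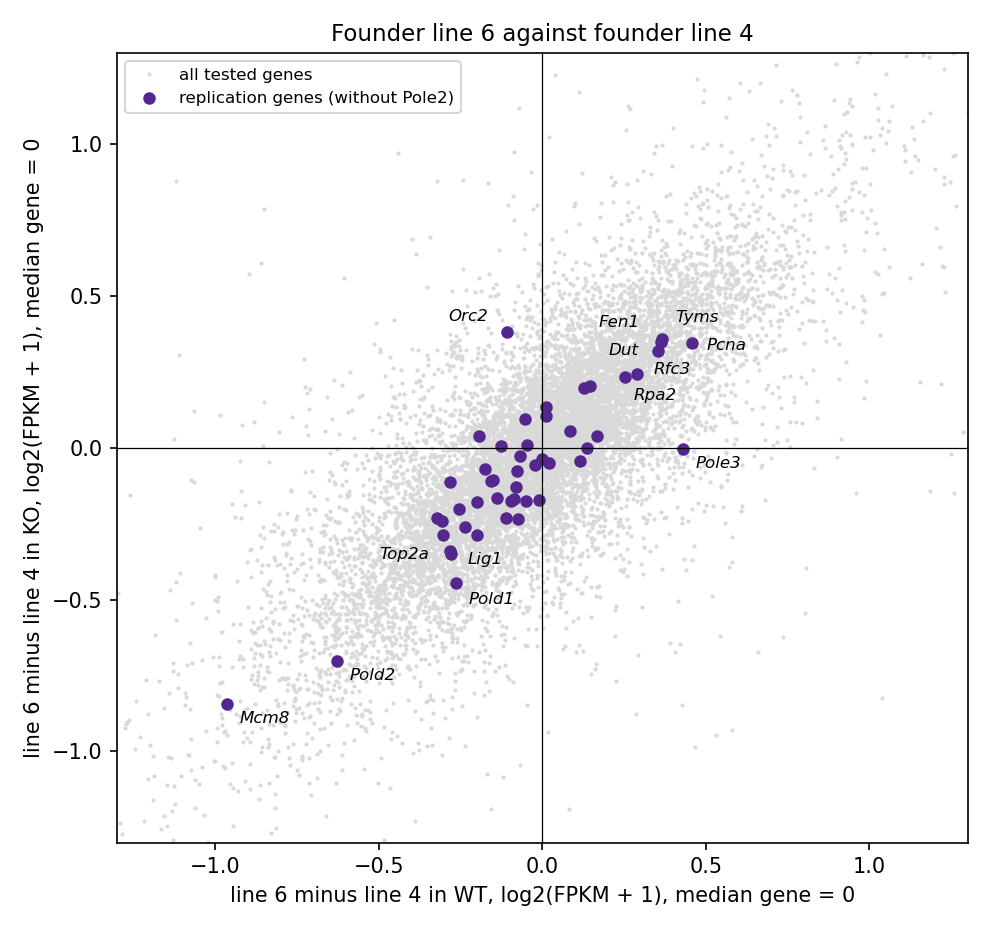
Line 6 minus line 4 in WT (x axis) against the same in KO (y axis), both in log2(FPKM + 1) with the median gene at 0, for 49 replication genes (dark) and all tested genes (grey); genes beyond the axes are not drawn. Mcm8 and Pold2 lie lowest on both axes, Pcna, Tyms, Fen1 and Dut lie high on both, and Orc2 and Pole3 stand off the diagonal.

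The differences were also set beside the promoters. The 19 members with an E2F match (Pole2 aside) had a median KO minus WT of -0.034 relative to the median gene, and the 22 without one had -0.069. Between the lines the medians were -0.090 and -0.027. Of the 6 members called higher in line 6 on centred values, Rfc3 held 2 E2F matches and the others 0. Of the 4 called lower, Lig1 held 2, Mcm8 and Pold1 held 1 each and Pold2 held 0. A match was present in 20 of the 42 genes with a promoter. These medians and counts are descriptions, and no difference between them was tested.

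Pole2 stood at 43.6 FPKM in WT replicate 1, 1967 FPKM in WT replicate 2, 26.3 FPKM in KO replicate 1 and 24.4 FPKM in KO replicate 2. The WT replicate 2 value was 45.1 times the highest other library, and it was not alone. In the gene order of RefSeq, the 8 genes with a value from Lrr1 to Nemf, Pole2 among them, were raised in that library, and they lie between the 7SL RNA genes Rn7s1 and Rn7s2, which were not analysed here. Klhdc1 reached 4857 FPKM against at most 1.57 FPKM elsewhere, Klhdc2 4956 against 37.5, Nemf 1564 against 41.0 and Lrr1 1956 against 6.69 FPKM. Outside the pair, Rps29 on 1 side and Arf6 on the other were at 0.769 and 0.977 times their highest other library. The gene model of Klhdc1 overlaps that of Pole2.

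**Figure D4:**
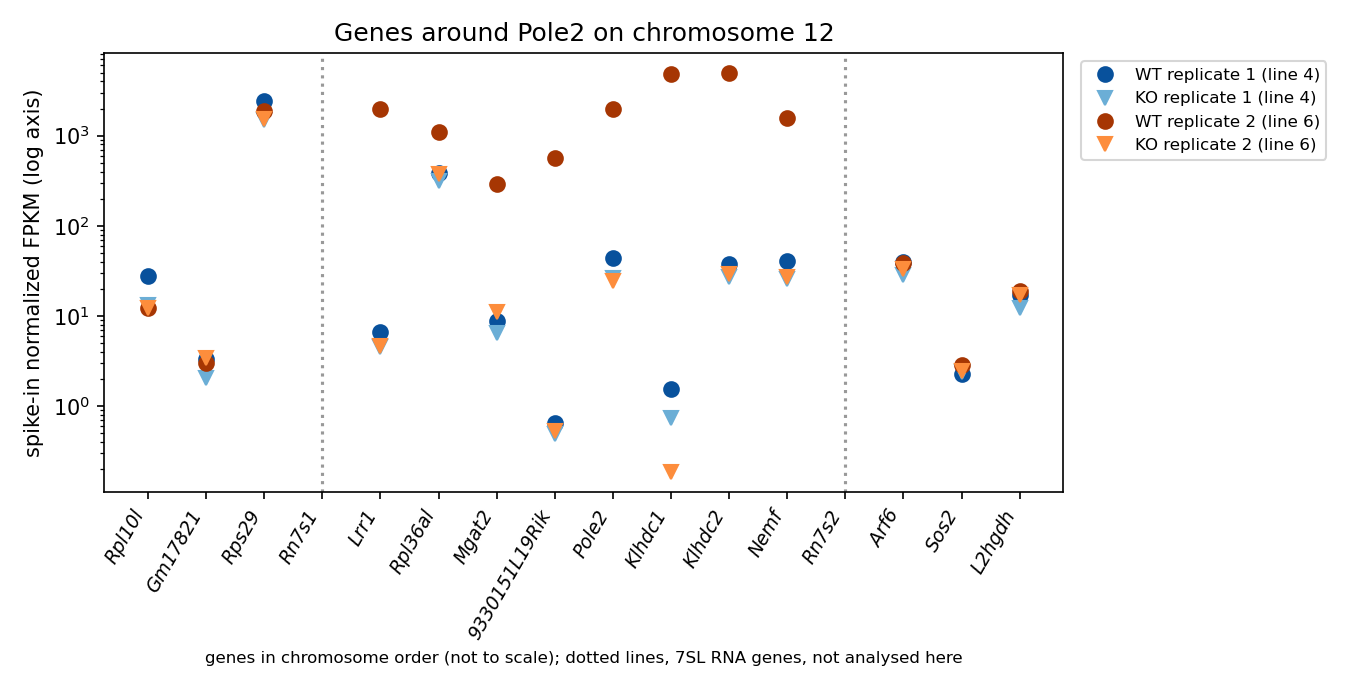
FPKM (log axis) of genes around Pole2 on chromosome 12 in the 4 libraries, in chromosome order and not to scale; dotted lines mark the 7SL RNA genes Rn7s1 and Rn7s2. From Lrr1 to Nemf the WT replicate 2 circle lies above the other libraries, by 2.83-fold in Rpl36al and 3100-fold in Klhdc1, while outside the dotted lines WT replicate 2 lies within the range of the other libraries or near it.

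With that library, the fit over all genes gave Pole2 a log2 fold change of -3.49 (limma adjusted p = 0.445), and the blocked fit an adjusted p of 1.1e-69. The blocked fit had an infinite prior df, so the gap between the lines of Pole2 itself did not enter its spread. On centred values the blocked fit gave an SE of 1.25 and a limma adjusted p of 0.832. Without WT replicate 2, Pole2 had a log2 fold change of -0.76 (SE 0.30, limma adjusted p = 0.287). In line 4, where no stretch was raised, the KO to WT ratio of Pole2 was 0.603, and it lay at -0.27 relative to the median gene, below all members but Orc2 and Orc5. Among the other 49 members no such neighbourhood was seen: the median of the 5 genes on either side, line 6 against line 4, ran from -0.34 to 0.50 in WT and from -0.23 to 0.31 in KO.

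Other genes of the pathway, listed by function, were also lower in KO in nearly all cases. Of 60 tested genes of licensing and firing, fork protection, accessory factors, nucleotide supply, replication-coupled chromatin and translesion synthesis, 58 were lower in KO in both lines (86.3% of all tested genes), 46 without overlap (59.8%), and 27 lay below the median gene in both lines (27.1%). None was called between KO and WT (limma, 0 in either direction), and 7 were lower at an unadjusted limma p under 0.05 (5.46%). Supt16h, a subunit of the histone chaperone FACT, had the lowest p of these, at 179 and 183 FPKM in WT and 114 and 129 FPKM in KO (log2 fold change -0.58, SE 0.20, limma adjusted p = 0.445). Nasp, a chaperone of free histones, had 251 and 237 FPKM in WT and 160 and 182 FPKM in KO. Wdhd1, which couples polymerase alpha to the helicase, had 37.6 and 36.0 FPKM in WT and 22.7 and 26.5 FPKM in KO. In all 3 the WT clones were close together and both KO clones lower, which their choice by a low p favours.

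Between the lines, most translesion synthesis genes were lower in line 6. Over 7 genes their median line 6 minus line 4 was -0.64 in WT and -0.37 in KO, relative to the median gene. Polh, the polymerase that copies past ultraviolet lesions, had 16.1 and 11.6 FPKM in WT and KO of line 4 and 6.33 and 5.52 FPKM in line 6, and Mad2l2, a subunit of polymerase zeta, had 19.8 and 15.1 FPKM against 10.4 and 9.09 FPKM. On centred values limma called 4 of the 7 lower in line 6 (Polh, Mad2l2, Poli and Polk, against 13.8% of all tested genes) and 0 higher (16.4%). Rev3l lay above the median gene in both genotypes (0.098 in WT and 0.22 in KO) and Rev1 on opposite sides of it (-0.18 and 0.087). Cdc7, the kinase that fires origins, was also lower in line 6, with 30.0 and 19.8 FPKM in WT and KO of line 4 and 17.8 and 14.9 FPKM in line 6 (limma adjusted p = 0.0072 on centred values). The 17 mitosis genes were set beside replication as another phase of the cycle. They were lower in KO in both lines in 17 of 17 cases (86.3% of all tested genes). Below the median gene in both lay 14 of the 17 (27.1%). Their median lay at -0.055 in line 4 and -0.097 in line 6 relative to the median gene, near that of the replication genes, and at -0.18 in WT and -0.22 in KO for line 6 against line 4.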

How the data were processed

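RNA-seq of 4 ES cell clones (2 WT, 2 KO) was used. The authors deposited 1 FPKM value per gene and library, normalized to spike-ins per the file headers; how they scaled them is not stated in these sources. The submitters' processing notes name Bowtie 0.12.8, TopHat2 2.0.9, affy, HTSeq, edgeR and mm9, without roles. Per library 25 names without a partner and 92 spike-ins were left out. Depth is unknown, so no counting interval is given.

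Tests used log2(FPKM + 1), a scale that understates changes of low genes. Genes averaging 1 FPKM or more were tested with limma 3.58.1 in R 4.3.3 (trend, two-sided, no line term, Benjamini-Hochberg over 11932 genes, threshold 0.05), after the script was tested on simulated data. Members, lists and naming rules were chosen with earlier results of these data known. Full values were given for, per role, the highest, the lowest and the lowest-p members, for called members, and for the 5 highest and lowest relative to the median gene. Replicate numbers stand for founder lines in the labels, and WT and KO deviations of a line correlated at 0.70 over 11932 genes. Alternatives were another pseudocount, filters, centring, quantile normalization, the line block, genotype as a term and leaving out each library. Strand use in counting is not given; 21 members overlap another gene model in RefSeq, and Pcna and Tyms have named pseudogenes, so their values are less certain.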

Additional observations from a re-analysis of the deposited data

Results flagged for a closer look

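Pole2 in WT replicate 2, which the report's counts and medians of 49 genes leave out, was listed at 45.1 times its level in the highest of the other libraries. The value stood apart together with its neighbours on chromosome 12 and in no other library.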

How the results depend on the processing

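Each group held 2 clones from 2 lines, so the p-values rest on few samples and on a spread shared between genes; arms left with 1 clone were assumed to vary like the others. The count of genes called between KO and WT, 2, became 0 without a filter, on centred values and with quantile normalization, 8 with a filter at a mean of 5 FPKM, and 0 to 133 without single libraries. With the founder line as a replicate block it was 95, 33 on centred values and 91 with a robust spread. No member other than Pole2 was called in any of these fits. The count between lines, 236, became 0 without a filter, 75 with a filter at 5 FPKM, 3602 on centred values, 3865 with quantile normalization, 1089 with genotype as a term, 3531 with that term on centred values, and 7 to 1607 without single libraries. The members' median KO minus WT, -0.38, was -0.070 on centred values and -0.011 with quantile normalization. Relative to the median gene it moved from -0.059 to -0.028 with a pseudocount of 0.1 FPKM, -0.23 without a filter, -0.039 with a filter at 5 FPKM, -0.025 with both that filter and that pseudocount, -0.012 with quantile normalization, and -0.12 to -0.0047 without single libraries. The line 6 minus line 4 median, -0.076, became -0.089 without a filter, -0.086 with a filter at 5 FPKM, -0.11 with quantile normalization and -0.11 to -0.034 without single libraries. The 32 members below the median gene in both lines became 21 with a pseudocount of 0.1 FPKM, 49 without a filter, 17 with quantile normalization and 20 with the pseudocount and filter together; counts under other settings of this result were added after seeing the data. For the movements other than those from fewer or more genes tested, the cause was not tested.

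Single members changed sign. KO against WT with quantile normalization gave Orc6 0.011, Cdc6 0.0090, Cdt1 0.086, Mcm7 0.062, Mcm8 0.018, Gins4 0.039, Pold1 0.043, Pole3 0.015, Pole4 0.081, Rpa1 0.034, Fen1 0.022, Tyms 0.024. On centred values, with or without the replicate block, it gave Cdt1 0.021, Mcm8 0.0016, Gins3 0.022, Pole4 0.034. Mcm8 ran from -0.86 to 0.25 without single libraries. Line 6 against line 4 crossed 0 without single libraries for 23 of the 32 members with full values, Pole2 among them (the other members were not run), where the remaining libraries also differ in genotype: Orc2 -0.34 to 0.58, Orc4 -0.48 to 0.064, Orc5 -0.46 to 0.28, Orc6 -0.28 to 0.17, Cdc6 -0.10 to 0.40, Cdt1 -0.33 to 0.0013, Gmnn -0.40 to 0.074, Mcm4 -0.45 to 0.16, Mcm7 -0.30 to 0.089, Cdc45 -0.58 to 0.0086, Gins3 -0.12 to 0.23, Gins4 -0.16 to 0.21, Pola1 -0.47 to 0.20, Prim1 -0.41 to 0.040, Prim2 -0.58 to 0.0019, Pold3 -0.39 to 0.15, Pole -0.38 to 0.079, Pole2 -0.46 to 5.82, Pole3 -0.011 to 0.41, Pole4 -0.054 to 0.38, Rfc3 -0.011 to 0.52, Rpa1 -0.33 to 0.15, Rrm2 -0.36 to 0.21.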
